A study of Mus musculus with 16 samples.

Results

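The 10 genes described here encode immediate early transcription factors and stress regulators: the NR4A nuclear receptors Nr4a1, Nr4a2 and Nr4a3, the AP-1 subunits Fos, Fosb, Jun and Junb, the related factor Atf3, the zinc finger factor Egr1, and Ier3. They are 10 of the 33269 gene names on the array. Each was found by the accession that the scanner files give its probe. They were chosen because an isolated fraction of hepatic inflammatory cells and whole liver differed in these genes, so that difference is described without a test, while the effect of treatment is tested. Every member was on the array with 1 probe, except Junb, which had 2.

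The samples came from female C57Bl/6 mice with cirrhosis, all fed for 40 weeks on an atherogenic diet high in fat. The 4 groups, each of 4 one-colour arrays, were inflammatory cells after adipose tissue-derived stem cells (ADSC, numbers 7 to 10), inflammatory cells after phosphate-buffered saline (PBS, numbers 11 to 14), liver after ADSC (7 to 10) and liver after PBS (11 to 14). The stem cells were grown from inguinal fat of GFP-transgenic mice and given in 2 injections of 100000 cells each into the spleen under its capsule, and samples were taken 2 weeks after the last injection. The labels do not say whether a number stands for an animal or whether each array comes from a separate one, so p-values here describe the spread between samples, which may be technical. The extraction protocol speaks of tumor-infiltrating cells and of blood, which leaves the isolation of the cells unsettled.

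Immediate early genes are transcribed within minutes of a stimulus, because the factors that switch them on, such as CREB, the serum response factor and its partners, are already present and need only phosphorylation. Their products include transcription factors that drive a second wave of genes, and most of their mRNAs decay quickly. In lymphocytes Nr4a1 follows signals from the antigen receptor, in macrophages Egr1, Atf3 and the AP-1 factors follow inflammatory signals, and in liver Jun, Fos and Atf3 are known for their induction by injury and regeneration. Taking tissue apart and handling cells is also known to induce such genes. All inflammatory cell samples were isolated and no liver sample was, so the state of the cells in the liver and the isolation cannot be told apart here.

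Levels are given as log2 of the processed signal minus the array's 75th percentile, on which scale 1 unit is a 2-fold change. They can be compared between arrays for 1 gene, not between genes, since probes differ in brightness. The 75th percentile of the signal ran between 123.8 and 551.9 over the arrays, and between 51.6% and 66.3% of spots were well above background. In the cell arrays, 6 hepatocyte markers had mean levels between -1.02 and 1.38, against 4.76 to 5.92 in liver. In limma T, B and NK cell markers were all higher (4 of 4, 4 of 4 and 5 of 5), where 48.9% of all genes were. The same held for neutrophil (8 of 8) and erythroid markers (3 of 3). Of the monocyte and macrophage markers 2 of 4 were higher, as were 2 of 4 Kupffer cell markers, and the rest were not called. Among the markers called higher, Cd4, Ncr1 and Gzma were at background on all 8 livers. They entered the fit only through the cells, which in effect fixed their direction. Cd79a, Elane and Timd4 were well above background on 3, 2 and 2 of 8 livers. Erythroid means lay between 4.88 and 8.22 in cells, against 0.39 to 1.72 in liver. Exocrine pancreas markers stood apart in 3 cell arrays, with mean levels of 8.55 in ADSC 10, 6.41 in PBS 11 and 8.57 in PBS 13, against -2.0 to 2.48 in the other cell arrays and -5.12 to -3.74 in liver. The tissue differences and the treatment differences are also given without these 3 arrays, while the levels, spreads, array patterns and correlations include them.

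The NR4A receptors, orphan nuclear receptors that bind DNA without a known physiological ligand, were far higher in the inflammatory cells. Nr4a1, which is induced by antigen receptor signalling in lymphocytes, had levels of 7.51, 8.23, 8.62 and 8.60 in ADSC cells and 8.88, 8.25, 7.88 and 8.15 in PBS cells, against 1.1, 1.28, 1.37 and 1.07 in ADSC livers and 1.56, 1.25, 1.29 and 1.18 in PBS livers. The lowest cell array lay 5.95 above the highest liver, and the cells exceeded liver by 7.00 on the log2 scale, or 128-fold. In the order of all genes tested, from the highest difference down, Nr4a1 was number 28 of 22139. Its difference was 7.03 after ADSC and 6.97 after PBS.

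Nr4a2, best known for its part in dopamine neurons and also induced in activated immune cells, had levels of 4.25, 4.00, 3.93 and 3.88 in ADSC cells and 3.56, 3.31, 2.78 and 4.51 in PBS cells, against -2.21, -2.40, -2.70 and -2.43 in ADSC livers and -3.07, -2.67, -2.70 and -2.76 in PBS livers. The difference was 6.40, or 84.2-fold, with no overlap between cells and liver. Nr4a3, the remaining member of the family, had levels of -0.74, -1.05, -1.35 and -1.05 in ADSC cells and -1.0, -1.04, -1.60 and -0.30 in PBS cells. In liver 0 of 8 arrays had it well above background. Its cell level was therefore at least 6.52-fold higher than in liver, a bound in which each liver counts at the probe's own signal or at the dimmest detected probe of that array, whichever is higher. The bound holds for the processed signal only: with a normexp correction of the background the difference was 1.95 on the log2 scale, which is below it. All 8 cell arrays measured Nr4a3.

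The 3 NR4A receptors also shared a feature of sequence in front of their genes. CREB, a factor activated by cyclic AMP and calcium, binds the cAMP response element, whose half-site reads TGACG on one strand and is seen as CGTCA on the opposite one. In the window between 250 bases before and 50 bases after the annotated transcription start, Nr4a1, Nr4a2 and Nr4a3 each held 4 half-sites, counted on both strands, while 0.252% of the 27025 promoters in the table held 4 or more. Those promoters were not matched for base composition. G and C made up 74.4%, 80.0% and 63.6% of the 250 bases upstream of Nr4a1, Nr4a2 and Nr4a3, and the part of this in the counts was not tested. The motif was chosen after the sequences had been read, so the count is a description, and a match is not evidence of binding. The 250 bases upstream are printed below for the 3 receptors and, beside them, for Fos, whose promoter is a standard example of regulation by CREB. They are 5′ to 3′ on the gene's strand, from RefSeq on GRCm38.p6, with half-sites in capitals.
Nr4a1 (chr15:101266596-101266845, plus strand): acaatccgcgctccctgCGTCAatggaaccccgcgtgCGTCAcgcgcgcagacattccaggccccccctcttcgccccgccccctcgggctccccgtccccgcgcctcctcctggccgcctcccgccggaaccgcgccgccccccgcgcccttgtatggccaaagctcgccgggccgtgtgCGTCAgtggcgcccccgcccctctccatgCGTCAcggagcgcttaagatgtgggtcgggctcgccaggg
Nr4a2 (chr2:57124004-57124253, minus strand): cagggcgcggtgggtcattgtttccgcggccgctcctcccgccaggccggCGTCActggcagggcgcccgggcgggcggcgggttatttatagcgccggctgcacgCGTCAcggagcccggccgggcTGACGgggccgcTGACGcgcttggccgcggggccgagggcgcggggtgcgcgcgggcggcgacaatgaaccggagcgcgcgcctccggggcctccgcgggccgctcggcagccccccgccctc
Nr4a3 (chr4:48045055-48045304, plus strand): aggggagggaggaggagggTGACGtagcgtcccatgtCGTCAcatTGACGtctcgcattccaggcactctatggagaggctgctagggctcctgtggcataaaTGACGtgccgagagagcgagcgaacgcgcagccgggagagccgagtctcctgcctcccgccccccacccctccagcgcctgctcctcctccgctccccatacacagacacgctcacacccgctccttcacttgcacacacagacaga
Fos (chr12:85473640-85473889, plus strand): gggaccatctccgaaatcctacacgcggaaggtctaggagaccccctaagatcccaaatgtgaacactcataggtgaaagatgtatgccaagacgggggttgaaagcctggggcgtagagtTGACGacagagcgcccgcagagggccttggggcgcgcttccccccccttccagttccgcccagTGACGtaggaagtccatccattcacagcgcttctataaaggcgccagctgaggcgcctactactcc

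Fos held 2 half-sites, Fosb, Junb and Atf3 held 1 each, and Jun and Ier3 held 0. Promoters on chromosome 18, where Egr1 lies, were left out of the counts, so Egr1 has no count here. Of the 9 members counted, 7 had at least 1 half-site, against 21.0% of the promoters counted. The full element TGACGTCA, present in 1.88% of promoters, was in none of the 9 windows, and the same held for the AP-1 site TGACTCA (5.17%), the NR4A monomer site AAAGGTCA (1.46%) and the CArG box of the serum response factor (1.57%). The EGR site GCGGGGGCG, present in 2.92% of promoters, was found in Nr4a1 and Fosb. A TATAAA sequence, present in 14.2%, was found in Nr4a2, Fos and Junb. Absence from this window says only that these letters do not occur in it.

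**Figure D1:**
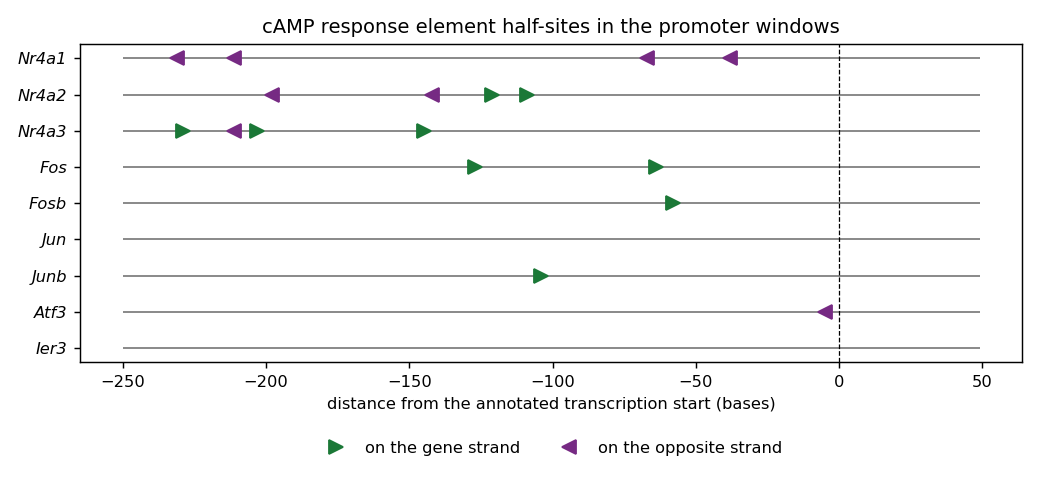
Position of cAMP response element half-sites (triangles, pointing right on the gene's strand and left on the opposite strand) in bases from the annotated transcription start, for the 9 members whose promoters were counted. Nr4a1, Nr4a2 and Nr4a3 carry 4 each, all upstream of the start, and Jun and Ier3 carry 0.

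Among the AP-1 subunits measured on every array, Fos differed most between cells and liver and Jun least. Fos, which pairs with Jun proteins to bind DNA, had levels of 3.52, 5.01, 5.26 and 5.46 in ADSC cells and 6.14, 5.51, 4.76 and 5.70 in PBS cells, against -1.82, -1.83, -1.85 and -1.77 in ADSC livers and -1.84, -0.58, -1.86 and -1.16 in PBS livers. Cells exceeded liver by 6.76, or 108-fold, which placed Fos at number 33. The 4 ADSC livers lay between -1.85 and -1.77, while the PBS livers 12 and 14 stood above the other livers.

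Fosb, a paralogue of Fos with long-lived splice forms studied in the brain, had levels of 0.86, 0.88, 1.43 and 1.77 in ADSC cells and 2.42, 2.21, 0.34 and 1.78 in PBS cells. In liver it was well above background on 1 of 8 arrays, PBS 12. After ADSC, where all 4 livers were at background, the cells were at least 27.7-fold higher by the processed signal. That bound too depends on the background handling, since with a normexp correction the difference over both treatments was 3.53 on the log2 scale. After PBS no exact difference is given, since 3 of the 4 livers were at background, and the lowest PBS cell array lay at 0.34 and the 1 liver that measured Fosb at -4.23.

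Jun, the AP-1 subunit that can pair with itself as well as with Fos, had levels of 2.31, 3.01, 3.18 and 3.5 in ADSC cells and 3.67, 3.19, 1.83 and 3.28 in PBS cells, against 0.96, 0.91, 0.96 and 1.08 in ADSC livers and 1.25, 1.46, 1.08 and 1.23 in PBS livers. The difference of 1.88, or 3.68-fold, was the smallest among the 8 members measured on every array, at number 6112 of 22139. Only 0.37 separated the lowest cell array, PBS 13, from the highest liver. Within the 5 slides, each of which held both sample types, the difference for Jun ranged between 0.48 and 2.32.

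Junb, a subunit that can hold back Jun and that takes part in lymphocyte and myeloid growth control, had levels of 8.56, 9.02, 9.09 and 9.16 in ADSC cells and 9.60, 9.14, 8.96 and 9.14 in PBS cells, against 4.57, 4.31, 4.51 and 4.37 in ADSC livers and 4.89, 5.05, 4.23 and 4.72 in PBS livers. The difference was 4.50, or 22.7-fold, and the second Junb probe gave 3.96. Its cell arrays lay close together, with a standard deviation (SD) of 0.28 pooled over the treatments.

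**Figure D2:**
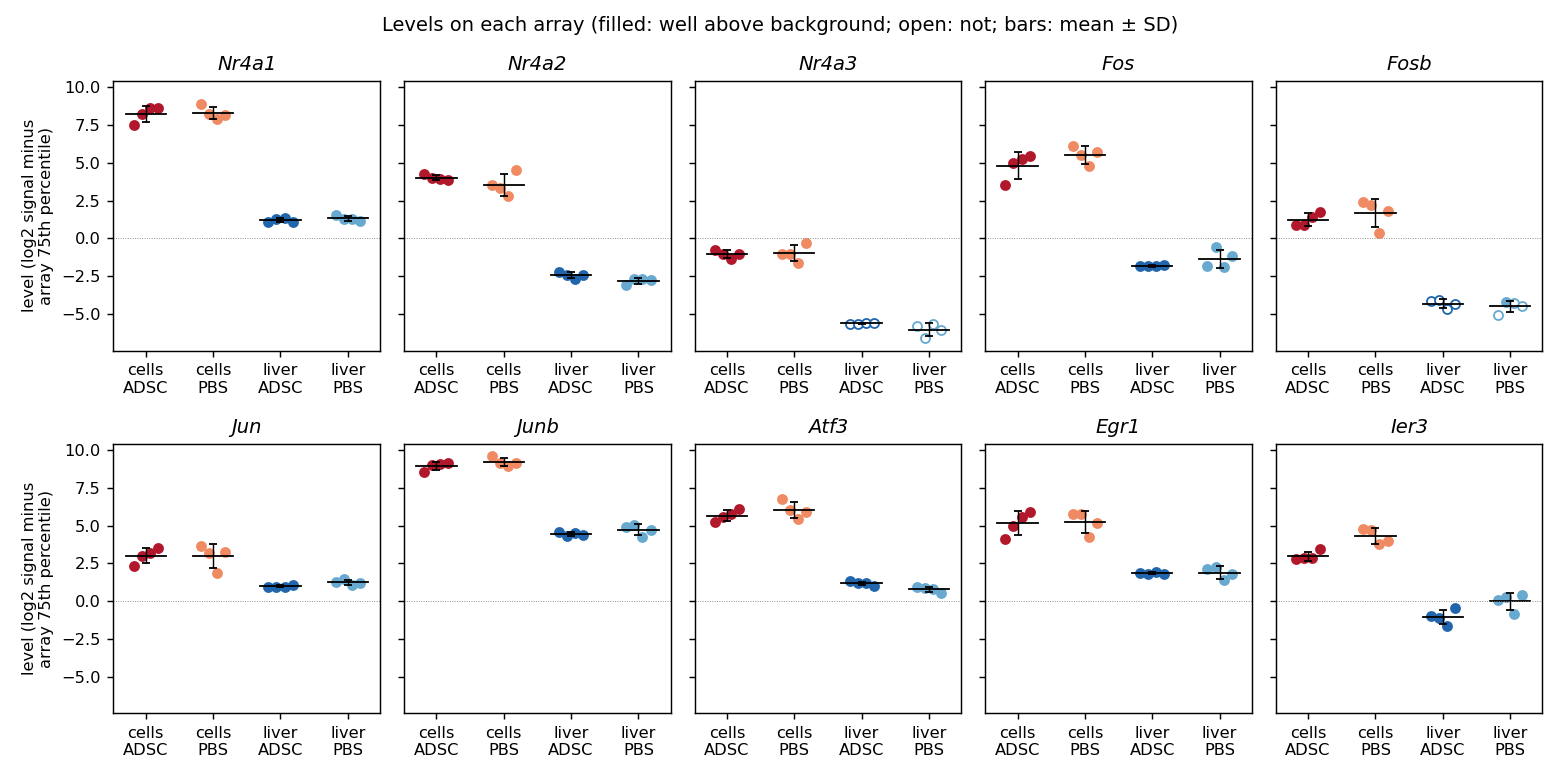
Level of each member (log2 signal minus the array's 75th percentile) on every array, in inflammatory cells after ADSC and PBS and in liver after ADSC and PBS, with the mean and SD of 4 arrays. Open circles were not well above background, and levels of different genes cannot be set against each other. In all 10 panels the 8 cell arrays lie above the 8 livers, with the narrowest gap, 0.37, for Jun.

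Atf3, a stress-induced factor of the ATF/CREB family that restrains inflammatory genes in macrophages, had levels of 5.25, 5.55, 5.78 and 6.08 in ADSC cells and 6.75, 6.04, 5.45 and 5.89 in PBS cells, against 1.32, 1.17, 1.20 and 1.02 in ADSC livers and 0.90, 0.87, 0.80 and 0.55 in PBS livers. It was higher in cells by 4.87, or 29.3-fold. The gap was 4.49 after ADSC and 5.25 after PBS, the widest disagreement between the treatments among the 8 members measured on every array.

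Egr1, a zinc finger factor switched on by growth factors and by inflammatory signals, had levels of 4.14, 4.96, 5.57 and 5.92 in ADSC cells and 5.75, 5.76, 4.21 and 5.16 in PBS cells, against 1.87, 1.80, 1.92 and 1.82 in ADSC livers and 2.12, 2.27, 1.38 and 1.78 in PBS livers. The difference was 3.31, or 9.94-fold. ADSC 7 and PBS 13 were the low cell arrays, and both were above every liver.

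Ier3, an early response gene that modulates cell survival and NF-kappaB signalling, had levels of 2.77, 2.84, 2.82 and 3.42 in ADSC cells and 4.77, 4.71, 3.77 and 3.95 in PBS cells, against -1.01, -1.10, -1.62 and -0.49 in ADSC livers and 0.10, 0.28, -0.86 and 0.39 in PBS livers. The difference was 4.17, or 18-fold. Ier3 was the only member whose 4 ADSC cell arrays all lay below the 4 PBS cell arrays.

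Over the 10 members the median difference between cells and liver was 4.84, against 0.35 for all genes tested and 0.68 for all genes when the arrays were scaled on probes detected on all of them. The members' median lies between Atf3 (4.87) and Nr4a3 (4.81), and the Nr4a3 value is not exact, since every liver was at background. Without the 3 pancreas-rich arrays the members' median was 4.87, and the differences were 6.90 for Nr4a1, 6.60 for Nr4a2, 6.69 for Fos, 1.92 for Jun, 4.43 for Junb, 4.77 for Atf3, 3.30 for Egr1 and 4.11 for Ier3. Within the 5 slides the difference ranged between 6.51 and 7.36 for Nr4a1, 5.63 and 7.50 for Fos, 3.01 and 5.35 for Ier3 and 2.19 and 3.73 for Egr1. None of the 10 overlapped between sample types. Of the 22139 genes tested, 33.9% did not overlap with the cells higher and 23.9% with the cells lower, and limma called 84.4%, with 48.9% higher and 35.5% lower in cells. The members were chosen on this contrast, so nothing is read from their count. In bulk samples such as these, fewer cells of a type and less RNA per cell cannot be told apart.

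The differences also moved with the background correction. With normexp, which models the spot and its local background and adds an offset of 50 that compresses folds of dim probes, the difference was 1.95 for Nr4a3 and 3.53 for Fosb, both at background on most or all livers. It was 5.11 for Nr4a2 and 5.88 for Fos, and 6.76 for Nr4a1. The cause of these shifts was not tested.

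**Figure D3:**
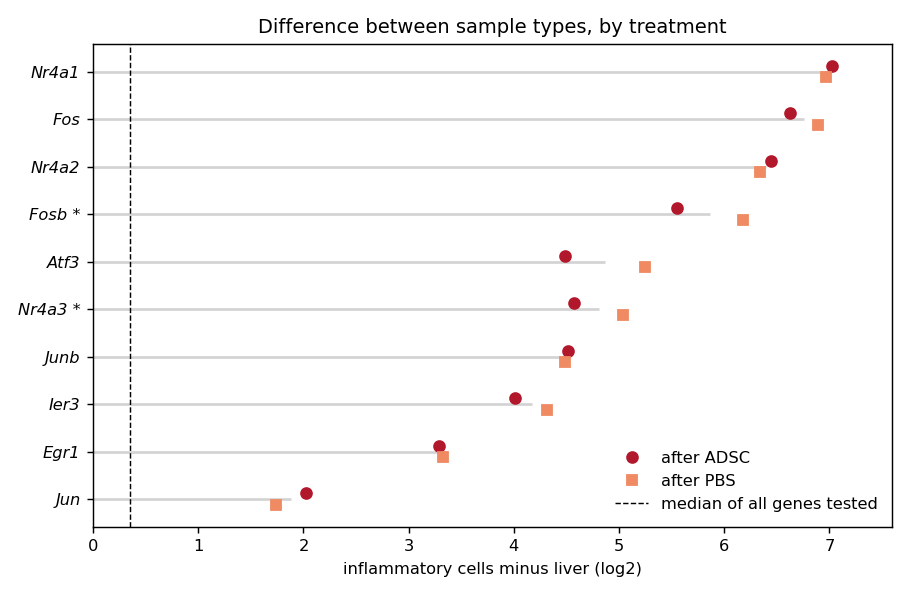
Log2 difference between inflammatory cells and liver for each member, after ADSC (circles) and after PBS (squares), with the grey line ending at the mean of both. The dashed line is the median of all genes tested, 0.35. An asterisk marks genes not well above background on every liver array, for which the plotted value is neither exact nor a bound. Among the other 8 the differences range between 1.88 for Jun and 7.00 for Nr4a1, on the mean of the treatments.

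Genes near the members in the same pathways were counted in the same fit, with limma's adjusted p under 0.05 as the call. By that call 48.9% of all genes tested were higher in cells and 35.5% lower, shares that belong beside every list count below. Some listed genes entered the fit only through the sample type in which they are high. These were Fosl1, Egr4, Ptgs2, Zfp36l2 and Cd69 through cells, and Hnf4a, Rxrg and Nr0b2 through liver. Their direction was in effect fixed by the filter, so the list counts are a description. The shares of all genes hold such genes too. Among 15 other AP-1 subunits and relatives tested, 9 were higher in cells, 4 were lower and 2 were not called, with a median of 1.29. Batf, which pairs with Jun proteins in lymphocytes, was higher by 3.42 ± 0.17 (SE, limma adjusted p = 3.46e-11, 8 arrays against 8). Atf5, an ATF family factor abundant in liver, differed by -4.78, with mean levels of 1.37 and 1.06 in ADSC and PBS cells, against 6.13 and 5.86 in ADSC and PBS livers. Fosl1, a Fos relative, had mean levels of -1.65 and -0.17 in ADSC and PBS cells and was measured on 1 of 8 livers, so no difference is given.

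Of 21 other immediate early regulators tested, 15 were higher, 2 lower and 4 not called, beside 48.9% higher and 35.5% lower among all genes. Their median was 1.72. The highest were Csrnp1, a nuclear protein of early responses, at 4.6, Btg2, an antiproliferative factor, at 4.50, and Klf4, a Krüppel-like factor, at 4.31. Of 29 early response genes that mostly encode feedback proteins, 25 were higher, 3 lower and 1 not called, with a median of 2.98. Rgs1, which dampens G protein signalling in lymphocytes, was higher by 7.10. Ptgs2, the inducible prostaglandin synthase, was at background on all 8 livers and was at least 74.5-fold higher in cells, a bound for the processed signal only. Cd69, the early activation antigen of lymphocytes, had mean levels of 3.57 and 3.96 in ADSC and PBS cells and was measured on 1 of 8 livers.

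Of 17 kinases and factors that act before the immediate early genes, 7 were higher, 4 lower and 6 not called, beside 48.9% higher and 35.5% lower among all genes. Their median was 0.15, against 0.35 for all genes. The mean level of the list lay between 0.50 and 0.60 in ADSC cells and between 0.11 and 0.61 in PBS cells, against 0.02 to 0.07 in ADSC livers and -0.01 to 0.09 in PBS livers. Nfatc2, a calcium-dependent factor of T cells, was the highest at 3.25, followed by Mef2d at 2.37 (each measured on 6 of 8 livers) and the CREB coactivator Crtc2 at 1.48. Of 14 nuclear receptors that include NR4A dimer partners and receptors typical of hepatocytes, 0 were higher, 13 were lower and 1 was not called, with a median of -2.81. Hnf4a, which defines hepatocytes, was at background in all 8 cell arrays, and liver was at least 56.7-fold higher, again for the processed signal only.

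Heat shock genes, which respond to misfolded protein, were higher in cells for 8 of 10 tested and not called for 2, beside 48.9% higher among all genes. Their median was 2.49. Hspa1b and Hspa1a differed by 9.85 and 9.56. The mean level of the 10 genes was between 6.16 and 6.87 in ADSC cells and between 5.88 and 6.71 in PBS cells, against 3.02 to 3.18 in ADSC livers and 2.82 to 3.10 in PBS livers. Their part in the members' difference was not tested.

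Within the inflammatory cells the same few arrays were high or low for most members and for several neighbouring lists. PBS 11 was the highest of the 8 cell arrays for 7 of 10 members, with a median deviation of 0.56 from its group mean. ADSC 7 was the lowest for 6 members and PBS 13 for the other 4, with median deviations of -0.41 and -0.69. Mean levels of the feedback genes were also highest in PBS 11 (4.11) and lowest in PBS 13 and ADSC 7 (3.16 each). The other early regulators (3.19 and 2.48) and the AP-1 relatives (2.01 and 1.03) were highest in PBS 11 and lowest in PBS 13. The nuclear receptors were instead highest in ADSC 8 (-0.45) and lowest in ADSC 7 (-1.2). In PBS 13 all 10 members were below the mean of their group.

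Nr4a2 and Nr4a3 departed from that order. In ADSC 7, where the other 8 members were below their group mean, Nr4a2 was 0.23 and Nr4a3 0.31 above it. Both were highest in PBS 14, by 0.97 and 0.69, where Nr4a1 deviated by -0.14. The heat shock mean was highest in ADSC 7, at 6.87, the array in which Fos deviated by -1.29 and Egr1 by -1.01. Pancreas markers were high both in PBS 11, where most members were highest, and in PBS 13, where 4 were lowest. Their part in these deviations was not tested.

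**Figure D4:**
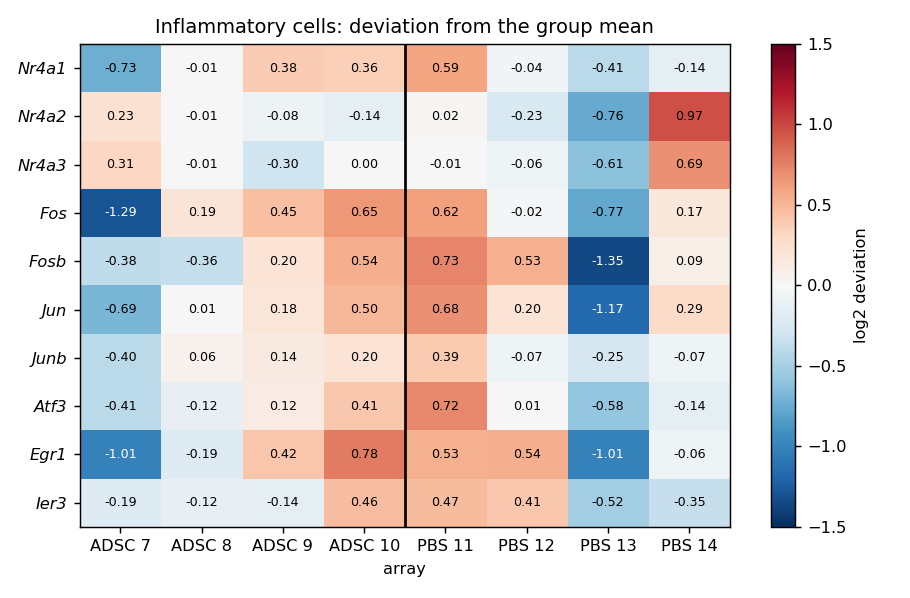
Deviation of each member from its group mean (log2) in the 8 inflammatory cell arrays, ADSC 7 to 10 left of PBS 11 to 14. Red is above the mean and blue below. ADSC 7 is blue for 8 members and red for Nr4a2 and Nr4a3, PBS 13 is blue for all 10, and PBS 11 is red for 9.

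The spread between arrays was larger in cells than in liver for 9 of the 10 members. The pooled SD in cells was 0.75 for Egr1, 0.74 for Fos, 0.73 for Fosb and 0.67 for Jun, against 0.28, 0.44, 0.33 and 0.12 in liver. Ier3 was the exception, with 0.42 in cells and 0.52 in liver. The share of all genes with a larger spread in cells was not computed, so whether the count is particular to the members is not known. The count includes Junb, with nearly equal values (0.28 in cells and 0.27 in liver). It also includes Nr4a3 and Fosb, which were at background on most or all livers. Over the genes measured, replicate arrays correlated at 0.921 to 0.968 in ADSC cells and 0.932 to 0.972 in PBS cells. In liver the range was 0.978 to 0.984 after ADSC and 0.960 to 0.976 after PBS. Fos and Jun were each printed as 10 spots per array, so the noise between spots of 1 array is known, without that of labelling, hybridisation or scaling. The SD between spots lay between 0.045 and 0.064 for Fos in cells and between 0.025 and 0.083 for Jun in cells.

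Genes outside the list that followed the members most closely were sought by the Pearson correlation with the mean of the standardised member levels. Over the 8 cell arrays and 12182 genes, these were Isyna1 (r = 0.970), Gramd1a (0.965), Spty2d1 (0.964), Per1 (0.963) and Bcl2l2 (0.957). Over the 8 livers and 11299 genes, with the 8 members tested there, they were Tspan33 (0.977), Samsn1 (0.976), Slc12a8 (0.974), Rhoj (0.972) and Ccl3 (0.970). Different genes led in each sample type. The arrays share scaling, slide and scan day, and with 8 points and so many genes such values are a description only.

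The effect of the stem cells was then tested within each sample type. In inflammatory cells, 0 of the 10 members passed limma's adjusted threshold of 0.05, where 243 of 20165 genes (1.21%) did, 1.07% lower and 0.134% higher after ADSC. At an unadjusted p under 0.05 the count was 1 of 10, against 18.4% of all genes. The median of the members was -0.16, against 0.03 for all genes. Of the 10 differences 8 were negative, where 52.8% of all genes were positive. Among the negative ones, Nr4a1, Nr4a3 and Egr1 differed by only -0.05, -0.07 and -0.07, and their sign turned under some alternatives.

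Ier3 came nearest to a call. Its mean level was 2.96 ± 0.30 in ADSC cells and 4.30 ± 0.51 in PBS cells (SD, n = 4 each), a difference of -1.34 ± 0.29 (SE) or 2.53-fold, with a 95% interval of -1.97 to -0.71 and a limma adjusted p of 0.0552. The groups did not overlap, which was so on the lower side for 6.68% of the genes tested and on the higher side for 3.64%. Within the slides that held both treatments the difference was -1.93 (ADSC 8 and PBS 11) and -1.94 (ADSC 7 and PBS 12). The same arrays made up 1 scan day, so its difference of -1.93 is not a separate result. The fit with slide as a fixed block rests on these pairs too. On the other scan day with both treatments, which held 1 PBS array, the difference was -0.66. Ier3 passed the threshold with slide as a random block (-1.56, limma adjusted p = 0.0134), with a normexp correction (-1.33, 0.0370), among probes above background on every array (-1.34, 0.0356) and without PBS 13 (-1.51, 0.0453). It did not pass with slide as a fixed block (-1.93, 0.0774), with scan day as a term (-1.42, 0.127), with quantile normalization (-1.02, 0.133), with scaling on detected probes (-1.21, 0.0947), with no filter (-1.34, 0.118), with all probes averaged (-1.34, 0.0555) or without the 3 pancreas-rich arrays (-1.52, 0.137). Without any other single array it did not pass either, with differences between -1.49 and -1.18.

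Neutrophil markers moved in the same direction as Ier3. All 8 were lower in ADSC cells in limma, with a median of -4.26, and their mean level was between 2.07 and 3.02 in ADSC cells, against 5.47 to 7.31 in PBS cells. At least 7 of the 8 were well above background on every cell array. Monocyte and macrophage markers had mean levels between 0.83 and 1.44 in ADSC cells, against 2.12 to 2.46 in PBS cells, with 0 of 4 called. Markers of Kupffer cells, the resident macrophages of liver, had mean levels between -0.41 and 1.43 in ADSC cells, against 1.54 to 3.17 in PBS cells, with a median difference of -2.0. Of these 4 markers 1, Cd5l, was called lower (-1.71 ± 0.36, SE, limma adjusted p = 0.0488, n = 4 each), while Clec4f differed by -3.55 and Vsig4 by -2.29 without a call. Timd4 differed the other way, by 0.25, also without a call. The part of these cell types in the Ier3 difference was not tested.

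For the NR4A receptors in cells, the intervals of ADSC minus PBS were -0.73 to 0.63 for Nr4a1, -0.26 to 1.20 for Nr4a2 and -0.69 to 0.56 for Nr4a3, around differences of -0.05, 0.47 and -0.07 (limma adjusted p = 0.949, 0.456 and 0.930). Among the AP-1 subunits, Junb had the narrowest interval and the other 3 had wider ones than any NR4A receptor: Fos -0.71 (-1.67 to 0.24), Fosb -0.45 (-1.39 to 0.49), Jun 0.01 (-0.87 to 0.88) and Junb -0.25 (-0.77 to 0.26). Atf3 differed by -0.37 (-1.03 to 0.30) and Egr1 by -0.07 (-1.04 to 0.89). The limma adjusted p-values of these 6 genes were between 0.389 and 0.996. Without the 3 pancreas-rich arrays, which left 3 ADSC and 2 PBS arrays, the differences were -1.0 for Fos, -0.94 for Fosb, -0.57 for Egr1, -0.40 for Jun and -0.38 for Nr4a3, and 0 of 10 members passed (limma adjusted p between 0.137 and 0.903).

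The direction turned between scan days for 7 of the 10 members. On the day that held ADSC 7, ADSC 8, PBS 11 and PBS 12, ADSC minus PBS was -1.56 for Fos, -1.44 for Fosb, -0.77 for Jun, -0.58 for Junb, -1.0 for Atf3, -1.20 for Egr1 and -0.70 for Nr4a1. On the day that held ADSC 9, ADSC 10 and PBS 13, the same genes differed by 0.60, 1.27, 1.51, 0.17, 0.48, 1.54 and 0.72. The second set rests on 1 PBS array, the one in which all members were below their group mean. Nr4a2 (0.69 and 1.12) and Nr4a3 (0.12 and 0.40) were positive and Ier3 negative on both days.

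**Figure D5:**
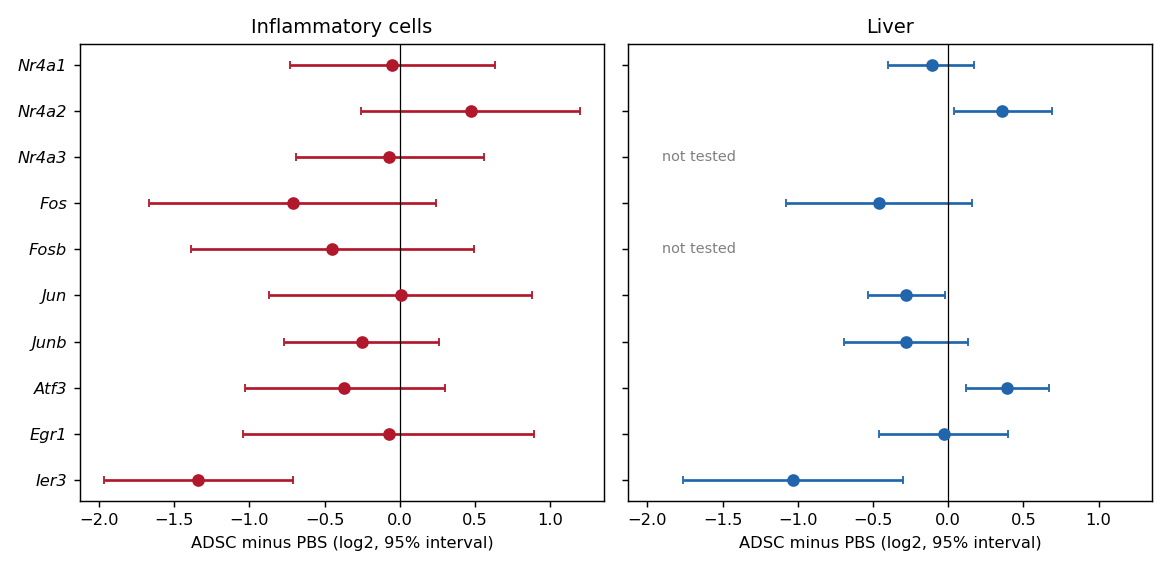
ADSC minus PBS (log2, points) with 95% intervals from limma for each member, in inflammatory cells and in liver. Ier3 lies below 0 in both, at -1.34 and -1.03, and no member passed the adjusted threshold in either. Nr4a3 and Fosb were too dim for a test in liver.

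In whole liver 8 of the 10 members could be tested, Nr4a3 and Fosb being at background on nearly all arrays. In limma 0 of 8 passed the adjusted threshold, as did 0 of all 17321 genes tested (0.0%). At an unadjusted p under 0.05 there were 4 of 8, against 4.65% of all genes, and they pointed both ways. Ier3 differed by -1.03 ± 0.32 (SE) and Jun by -0.28 ± 0.11, while Nr4a2 differed by 0.36 ± 0.14 and Atf3 by 0.39 ± 0.12. The limma adjusted p was 0.953 for Atf3, 0.990 for Ier3 and 0.998 for Jun and Nr4a2.

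Atf3 was the member whose liver groups did not overlap, with 1.17 ± 0.12 in ADSC livers and 0.78 ± 0.16 in PBS livers (SD, n = 4 each), as for 1.67% of genes on the higher side. Its difference was 0.52 between ADSC 7 and PBS 13, the only livers of both treatments on 1 slide, and 0.46 on the 1 scan day that held both. For Ier3 the same comparisons gave -0.15 and -0.45, and the liver groups overlapped. The neutrophil markers had mean levels between -1.59 and -0.08 in ADSC livers, against 0.94 to 4.66 in PBS livers, with 0 of 7 tested called in limma. PBS 12 held the highest of these means and the highest liver value of 4 members, Fos at -0.58 among them. Their part in the Ier3 and Fos values was not tested.

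Whether the effect of the stem cells differed between cells and liver was tested as an interaction over the 16 arrays. Nr4a3 and Fosb entered this fit only through the cell arrays, being at background on nearly all livers. They are counted below, but their interaction is not read. In limma 0 of 10 members passed, against 7 of 22139 genes (0.0316%), and 1 of 10 had an unadjusted p under 0.05, against 10.1%. That gene was Atf3, at -0.76 ± 0.34 (SE, 95% interval -1.49 to -0.04, limma adjusted p = 0.477), lower after ADSC in cells and higher in liver. For Ier3 the difference between the effects was -0.31 with an interval of -1.26 to 0.65, and for Nr4a1 it was 0.06 with an interval of -0.69 to 0.81.

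The neighbouring lists held few treatment calls, where 1.21% of all genes tested in cells passed. In cells 0 of 15 AP-1 relatives, 0 of 21 other immediate early regulators, 0 of 28 feedback genes, 0 of 10 heat shock genes and 0 of 11 nuclear receptors passed in limma. Of 17 upstream factors 1 passed, Mef2c, a factor of muscle and B cells that can drive Nr4a1. Mef2c had mean levels of 1.84 in ADSC cells and 0.47 in PBS cells, a difference of 1.37 ± 0.28 (SE, limma adjusted p = 0.0431, n = 4 each). The call was lost without PBS 12, PBS 13, PBS 14, ADSC 9 or ADSC 10, with limma adjusted p between 0.0695 and 0.155, while the difference stayed between 1.19 and 1.56. B cell markers had mean levels between 2.60 and 3.61 in ADSC cells, against 1.31 to 2.62 in PBS cells, with 0 of 4 called, and their part in the Mef2c value was not tested. In liver 0 genes of these 6 lists passed, as did 0 of all 17321 genes tested.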

How the data were processed

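Each of 16 RNA samples, labelled with Cy3, was measured on 1 Agilent one-colour array, and the authors deposited 1 scanner file per array. Per the file headers, Feature Extraction 10.5.1.1 made the processed signal, an intensity with the background subtracted and no normalization between arrays. The median spot and background signals used in an alternative are also intensities in the deposited files. The deposited value table equals the processed signal (largest relative difference 0.0), with neither log nor centring, and its columns have medians between 30.6 and 90.9. The genome build and annotation behind the probe names are not given in the sources used here.

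Of 43379 spots on an array, the 71 to 124 marked as outliers were not used, and saturation marked 0. The log2 signal had the array's 75th percentile subtracted, and spots of a probe were averaged. Accessions named 23374 of 41174 probes through the GRCm38.p6 RefSeq table, 17800 kept the file's name, and the brightest probe stood for a gene. A gene entered a fit if 4 or more of its arrays had the probe well above background. R 4.3.3 and limma 3.58.1 gave log2 differences with standard errors, with Benjamini-Hochberg adjustment over all genes tested and a threshold of 0.05. The ADSC effect was fitted within the 8 arrays of each sample type, and the interaction and the difference between sample types used all 16. The number of arrays limits the precision. The fits were run on simulated levels, with planted changes larger than any treatment difference of a member and without slide or scan day effects. That run says nothing about differences as small as those of the members. Replicates correlated at 0.921 or above within groups. The same-numbered cell and liver arrays did not deviate together (correlations between -0.061 and 0.169), so numbers were not used as pairs. Alternatives covered scaling, background correction, the filter, the probe rule, slide, scan day, the replicate number and left-out arrays.

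The members, the gene lists and the named genes (all members, calls and the 3 largest tissue differences of each list, and the 5 genes most like the members) were chosen with earlier results of these data known. Normexp was run on the median spot signal, since the files hold no mean signal.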

Additional observations from a re-analysis of the deposited data

Results flagged for a closer look

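Among the 40 groups of 4 arrays (10 members in 4 groups), 1 held an array far from its fellows. Ier3 in inflammatory cells after ADSC had a level of 3.42 in ADSC 10, while ADSC 7, 8 and 9 lay between 2.77 and 2.84. The gap was 0.892 of the group's range, and the critical value for 4 arrays is 0.829. Chance alone marks about 1 in 20 such groups. ADSC 10 was also an array with high pancreas markers, and their part in the value was not tested. Without ADSC 10 the Ier3 difference between ADSC and PBS in cells was -1.49 (limma adjusted p = 0.0780).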

How the results depend on the processing

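The direction of the small treatment differences was not stable, while that between cells and liver was positive under every alternative run. The median difference of the members was 4.05 with normexp and the 75th percentile and 4.38 with normexp and quantile normalization, between 4.78 and 4.94 with single arrays left out, and 4.84 with the replicate block, random or fixed. In cells 1 member, Ier3, was called with normexp and the 75th percentile, with the filter on every array and with slide as a random block, and between 0 and 1 with single arrays left out. In liver and for the interaction 0 were called, with the replicate block too. Over all genes the calls in cells ranged between 0 (slide fixed, or without the 3 pancreas-rich arrays) and 818 (slide random) and between 68 and 507 with single arrays left out, against 243. For the interaction they ranged between 0 and 65, against 7, and the cause was not tested. In cells the sign turned for Nr4a1 (0.07), Nr4a3 (0.06) and Egr1 (0.05) when scaled on detected probes; for Nr4a3 (0.09) and Jun (-0.14) with normexp and the 75th percentile; for Egr1 (0.26) with quantile normalization; for Nr4a3 (0.01) and Jun (-0.30) with slide random, 0.12 and -0.77 with slide fixed; for Nr4a3 (0.23) with scan day; and for Jun (-0.40) without the pancreas-rich arrays. In liver Egr1 turned with slide random (0.04), and Fos, Junb and Egr1 with slide fixed (0.04, 0.35 and 0.50) and with scan day (0.02, 0.31 and 0.52). For the interaction Egr1 turned when scaled on detected probes (0.10) and with quantile normalization (0.31), and Nr4a1 with normexp and the 75th percentile (-0.07). Nr4a1 and Junb turned with slide random (-0.03 and -0.04), Nr4a1, Nr4a3 and Junb with slide fixed (-0.44, 0.14 and -0.39) and with scan day (-0.14, 0.25 and -0.28), and Nr4a2 (-0.22) and Jun (-0.13) without the pancreas-rich arrays. With single arrays left out, differences that turned ranged in cells between -0.19 and 0.19 (Nr4a1), -0.27 and 0.16 (Nr4a3), -0.38 and 0.23 (Jun) and -0.41 and 0.26 (Egr1), and in liver between -0.20 and 0.09 (Egr1). For the interaction they ranged between -0.08 and 0.30 (Nr4a1), -0.15 and 0.43 (Nr4a2), -0.52 and 0.17 (Fos), -0.11 and 0.51 (Jun), -0.08 and 0.19 (Junb) and -0.37 and 0.30 (Egr1). The cause of these turns was not tested. Mef2c lost its call with no filter, slide fixed, scan day or without the pancreas-rich arrays (limma adjusted p = 0.101, 0.176, 0.149 and 0.137), and its difference stayed between 1.17 and 1.56 under every alternative run. Signal near background limits Nr4a3 and Fosb in liver, and with it their interaction values.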
